A study of Homo sapiens with 12 samples.

Results

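The 33 genes described here encode the enzymes of glycolysis, the lactate dehydrogenases, the pyruvate dehydrogenase complex, and the transporters and regulators that serve them. They were chosen by name, from a list of symbols, out of 60675 genes in the count tables, and all 33 were found. They comprise 23 enzymes (16 of glycolysis, 2 lactate dehydrogenases and 5 subunits of the pyruvate dehydrogenase complex), 6 transporters and 4 regulators. They were followed in A375, an established human melanoma line with an activated BRAF gene, and in A375/211, a derivative that overexpresses MIR211, from which the microRNA miR-211 is processed. The sources used here do not say how MIR211 was introduced or whether A375/211 is a clone or a pool. The labels name no empty-vector line, so miR-211 and whatever else separates the lines cannot be told apart. Both lines were grown in Tu medium, a low-serum medium for melanoma cells. Total RNA was sequenced in 2 RNA-seq libraries per line, with the letters a and b. RNA-seq cells were grown without BrU. In BRIC-seq both lines were given 5-bromouridine (BrU) for 24 h, BrU-containing RNA was recovered with a commercial kit after 0, 1, 3 and 6 h of chase, and 1 library was made per line and time.

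Glycolysis splits glucose into pyruvate and yields ATP without oxygen. Glucose enters through the SLC2A carriers, hexokinases trap it as a phosphate, and phosphofructokinase commits it to breakdown, a step stimulated by fructose 2,6-bisphosphate, which the PFKFB enzymes make and remove. Pyruvate is then reduced to lactate by lactate dehydrogenase and exported through the SLC16A carriers, or taken into mitochondria by the MPC1 and MPC2 carrier, where the pyruvate dehydrogenase complex turns it into acetyl-CoA. Kinases switch that complex off and the phosphatase PDP1 switches it on. Melanoma cells, like many tumour cells, make much lactate even when oxygen is present. The messages of central metabolic enzymes are commonly long-lived, whereas those of regulators often turn over faster.

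The microRNA processed from the gene that the derivative line overexpresses is shown with its matches in these genes. The part of this microRNA in the differences between the lines was not tested. The mature sequence is from RefSeq (GRCh38.p14, chromosome 15, 31065095 to 31065116, minus strand), with the seed, bases 2 to 8, in capitals:
hsa-miR-211-5p: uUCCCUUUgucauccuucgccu
The 7-base match to that seed, AAAGGGA, was searched on the sense strand of the annotated 3' UTRs (GENCODE 44, hg38). It lay in 2 of 33 members (6.06%), beside 17.3% of all 19538 annotated 3' UTRs. PDHX, the subunit that binds the E3 component to the core of the complex, holds it once, and PFKFB2, the cardiac-type fructose 2,6-bisphosphate enzyme, holds it at 2 places. The match is in capitals:
PDHX, bases 263 to 269 of the 3' UTR: tggtgctgtatAAAGGGAatattaaacta
PFKFB2, bases 3412 to 3418: ctaaagtggggAAAGGGAaattattctgt
PFKFB2, bases 3567 to 3573: tttgttttggtAAAGGGAtgatttttaca
Of 3' UTRs between 0.8 and 1.25 times as long, 10.9% hold a match as the 956 bases of PDHX do, and 14.9% hold at least 2 as the 5446 bases of PFKFB2 do. Neither gene passed a test between the lines below. A match in these letters is not evidence of a bound site.

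MIR211 had 0 counts in every A375 library and 36 and 18 in the A375/211 RNA-seq libraries, and 9, 11, 2 and 3 over the chase. RNA-seq libraries held 20.85 to 34.13 M (1e6) counts and BRIC-seq libraries 2.67 to 7.28 M counts, with more at the later times. Among melanocyte markers, SOX10 stood at 135 to 231 CPM (counts per 1e6 after TMM, edgeR's trimmed-mean correction of library size) in RNA-seq, while MLANA and TYR, which serve pigmented cells, reached at most 0.245 and 0.243 CPM. These 2 do not stand for the whole list. All 8 markers listed, with PMEL, DCT and TYRP1 among them, summed to 383 to 492 CPM in RNA-seq. Of the 8, 6 had enough RNA-seq counts to be tested. Between the lines 1 of these 6 passed and 5 did not, against 0.379% of all genes tested. MITF, the marker that passed, stood at 252.5 and 243.8 CPM in A375 and 38.8 and 49.0 CPM in A375/211 (edgeR adjusted p = 0.0448). S100B lay the other way, at 32.6 and 29.0 CPM in A375 and 94.5 and 99.99 CPM in A375/211, and did not pass (edgeR adjusted p = 0.0533). Summed markers of fibroblasts, leukocytes and endothelium were higher in the labelled RNA of A375/211 than of A375. They reached 147, 51.0 and 46.3 CPM, against at most 14.3, 7.36 and 4.08 CPM in A375. Few genes carry these sums, as 2 of 5, 1 of 5 and 1 of 4 had enough labelled counts to be tested. Keratinocyte markers reached at most 4.08 CPM in any labelled library. In RNA-seq the fibroblast sum was 26.1 and 61.3 CPM in A375 and 26.9 and 25.7 CPM in A375/211. The leukocyte sum was 2.95 and 1.36 CPM and 1.41 and 0.905 CPM, and the endothelial sum 4.17 and 3.58 CPM and 6.03 and 9.18 CPM. The part of such markers in the results was not tested. The labels do not state whether the libraries of a line are from separate cultures. The p-values therefore rest on the spread among these libraries alone, which may be technical. Of the members, 23 share an exon with another annotated gene, 18 of them with a gene on the opposite strand. Whether the authors' counting used strand is not given in the sources used here, so the overlapping genes carry some uncertainty, as do members with near-identical pseudogenes.

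As labelled RNA aged over the chase, the enzymes made up a growing part of what remained, while most of the regulators made up a shrinking part. The summed raw counts of the 33 members went from 0.338% of all labelled counts at 0 h to 0.839% at 6 h in A375, and from 0.436% to 1.00% in A375/211. Enzymes carried that growth, from 0.278% to 0.813% and from 0.362% to 0.984%. Regulators went from 0.0357% to 0.0134% and from 0.0487% to 0.0071%. Transporters went from 0.0239% to 0.0128% and from 0.0262% to 0.0118%. In RNA-seq the 33 members held 1.18% to 1.87% of counts. The mitochondrial ribosomal RNA MT-RNR2 took a growing share too, from 7.71% to 26.9% of labelled counts in A375 and from 7.38% to 26.4% in A375/211, and its part in the slopes was not tested. In bulk RNA fewer cells carrying a transcript and less of it per cell cannot be told apart.

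The slope of each gene over the chase was fitted in log2 per hour over both lines (edgeR quasi-likelihood test, n = 8 libraries, adjusted p over all 13703 genes tested). A slope compares a transcript with the other labelled RNA and is not a decay rate: one that decays slower than the rest rises. Of the 31 members tested, 22 rose, 4 fell and 5 did not pass, against 29.9% rising and 34.4% falling among all genes tested. Their median slope was 0.31, beside -0.04 over all genes. PFKL and SLC16A3 had too few labelled counts to be tested. The sign of a slope depends on the scaling, because a change of scaling adds about the same amount to all slopes. With total counts in place of TMM 20 members rose and 7 fell, with ribosomal protein mRNAs held constant 2 rose and 10 fell, and with the row that names no gene held constant 0 rose and 31 fell. The order of the members is what the slopes show, and the directions below are those under TMM.

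By class, the enzymes stood highest. Of 22 enzymes tested 19 rose and 0 fell under TMM, with a median of 0.38; with total counts 18 rose and 2 fell, and with ribosomal protein mRNAs constant 2 rose and 3 fell. Of the 4 regulators 1 rose and 3 fell, with a median of -0.16, and with ribosomal protein mRNAs constant 0 rose and 4 fell. Of the 5 transporters tested 2 rose, 1 fell and 2 did not pass, with a median of 0.02, and with ribosomal protein mRNAs constant 0 rose and 3 fell. The classes were not tested against each other.

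**Figure D1:**
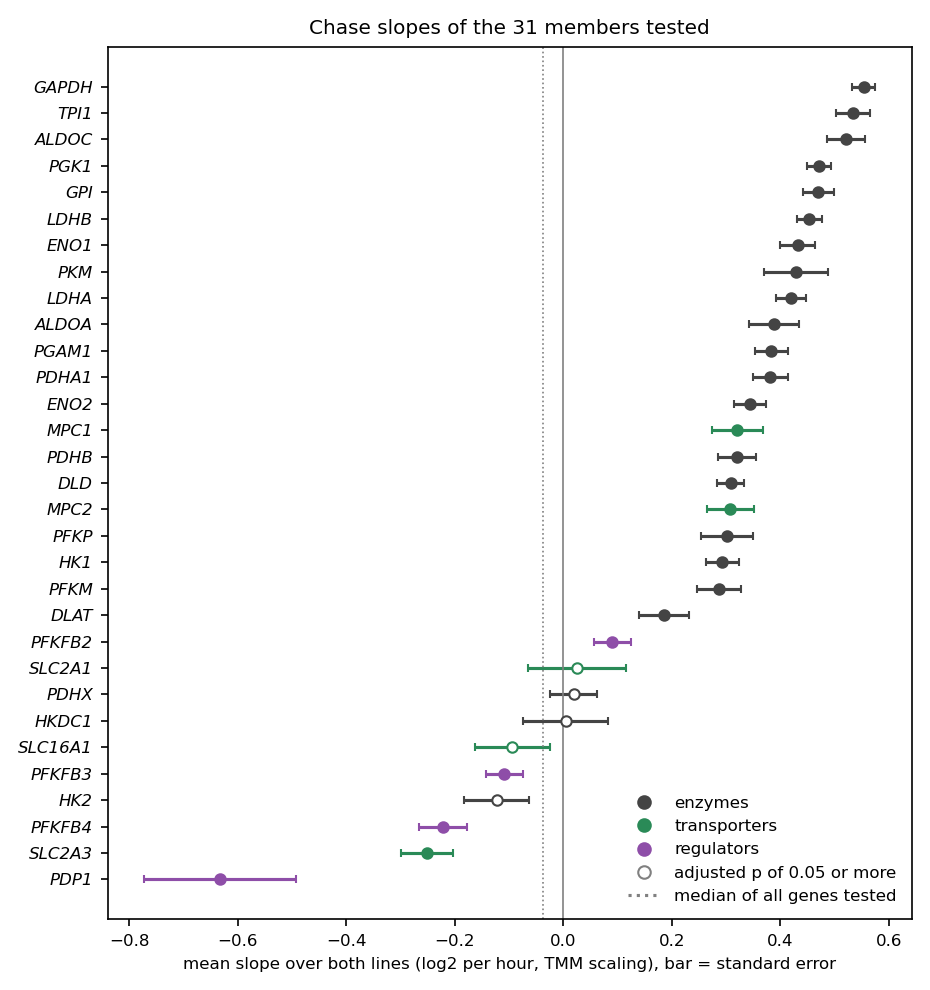
Mean chase slope of the 31 members tested, in log2 per hour under TMM scaling, with the standard error as a bar; filled points passed and open points did not, and the dotted line is the median of all genes. Enzymes fill the upper end from GAPDH (0.55) downward and PDP1 (-0.63) stands lowest; holding ribosomal protein mRNAs constant turns 13 of the 31 signs.

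The 6 highest slopes belonged to 5 glycolytic enzymes and a lactate dehydrogenase. GAPDH, which oxidises glyceraldehyde 3-phosphate, went through 261, 295, 746 and 2437 CPM at 0, 1, 3 and 6 h in A375. In A375/211 it went through 368, 502, 1077 and 3519 CPM. Every later library of a line exceeded every earlier one, and the mean slope was 0.55 (SE 0.02, edgeR adjusted p = 3.22e-06). TPI1, the triose phosphate isomerase, went through 21.3, 36.6, 90.3 and 250.7 CPM in A375 and 35.8, 47.1, 92.9 and 267 CPM in A375/211, a mean slope of 0.53 (SE 0.03). ALDOC, the brain-type aldolase, went through 11.7, 12.8, 29.8 and 108 CPM and 25.6, 28.1, 63.7 and 174.5 CPM (mean slope 0.52, SE 0.04). All 3 therefore climbed step by step in both lines. GAPDH pseudogenes had 36.6% as many counts as GAPDH at 0 h and 9.97% at 6 h in A375, and 36.0% and 10.3% in A375/211. TPI1 pseudogenes had 19.2% and 9.13% as many as TPI1, and 12.0% and 9.07%. The part of these shares in the slopes and in the order of these genes was not tested.

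PGK1, the first ATP-forming enzyme of the pathway, went through 265, 300, 635 and 1887 CPM in A375 and 387, 489, 949 and 2478 CPM in A375/211 (mean slope 0.47, SE 0.02). GPI, which converts glucose 6-phosphate to fructose 6-phosphate, went through 53.4, 62.2, 107 and 397 CPM and 68.7, 92.1, 159 and 441 CPM (mean slope 0.47, SE 0.03). LDHB, the lactate dehydrogenase subunit common in oxidative tissue, went through 358, 390, 685 and 2219 CPM and 592, 797, 1545 and 3889 CPM (mean slope 0.45, SE 0.02). With ribosomal protein mRNAs held constant, GAPDH (0.21) and ALDOC (0.17) were the members that still rose, and with the row without a gene held constant none did. The remaining glycolytic and lactate enzymes that rose under TMM ran from ENO1 (0.43), PKM (0.43) and LDHA (0.42) through ALDOA (0.39), PGAM1 (0.38) and ENO2 (0.34) to PFKP (0.30), HK1 (0.29) and PFKM (0.29). Of these, HK1, PFKM, PFKP and ENO2 turned below 0 with ribosomal protein mRNAs constant.

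At the lower end stood regulators, a glucose carrier, a hexokinase and a lactate carrier. PDP1, the phosphatase that activates pyruvate dehydrogenase, went through 21.6, 101.5, 14.6 and 6.37 CPM in A375 and 198, 210, 32.3 and 17.0 CPM in A375/211. Its A375 library at 1 h stood above the one at 0 h, so that the course was uneven in that line, and the mean slope was -0.63 (SE 0.14, edgeR adjusted p = 0.00398). PDP2, the other phosphatase of the complex, showed the same A375 library apart, with 4.66, 53.2, 8.20 and 3.58 CPM. Without that library the PDP1 slope still passed. It fell under each scaling run.

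SLC2A3, the high-affinity glucose carrier GLUT3, went through 27.4, 18.2, 16.5 and 6.96 CPM in A375 and 30.7, 32.8, 25.8 and 13.8 CPM in A375/211 (mean slope -0.25, SE 0.05, edgeR adjusted p = 0.00176). PFKFB4, which is induced by low oxygen in many cells, went through 133, 127, 78.4 and 70.4 CPM and 76.5, 68.5, 30.2 and 26.0 CPM (mean slope -0.22, SE 0.04, adjusted p = 0.00245 by edgeR). PFKFB3, the form with the strongest kinase activity, went through 103, 110, 82.1 and 82.8 CPM and 65.7, 72.7, 55.0 and 36.9 CPM. Its slope was shallow, at -0.11 (SE 0.03, edgeR adjusted p = 0.0218), and its call was lost when any of 3 libraries was left out (the 1 h library of either line or the 6 h library of A375/211), with the slope between -0.14 and -0.06. HK2, the inducible hexokinase bound to mitochondria, went up and then down, through 102, 131, 137 and 78.6 CPM and 79.2, 109, 104 and 42.7 CPM, and its mean slope of -0.12 (SE 0.06) did not pass. SLC16A1, the lactate carrier MCT1, followed a like course, through 113, 143, 168 and 77.4 CPM and 115.5, 157, 196 and 83.0 CPM (mean slope -0.09, SE 0.07), and did not pass.

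**Figure D2:**
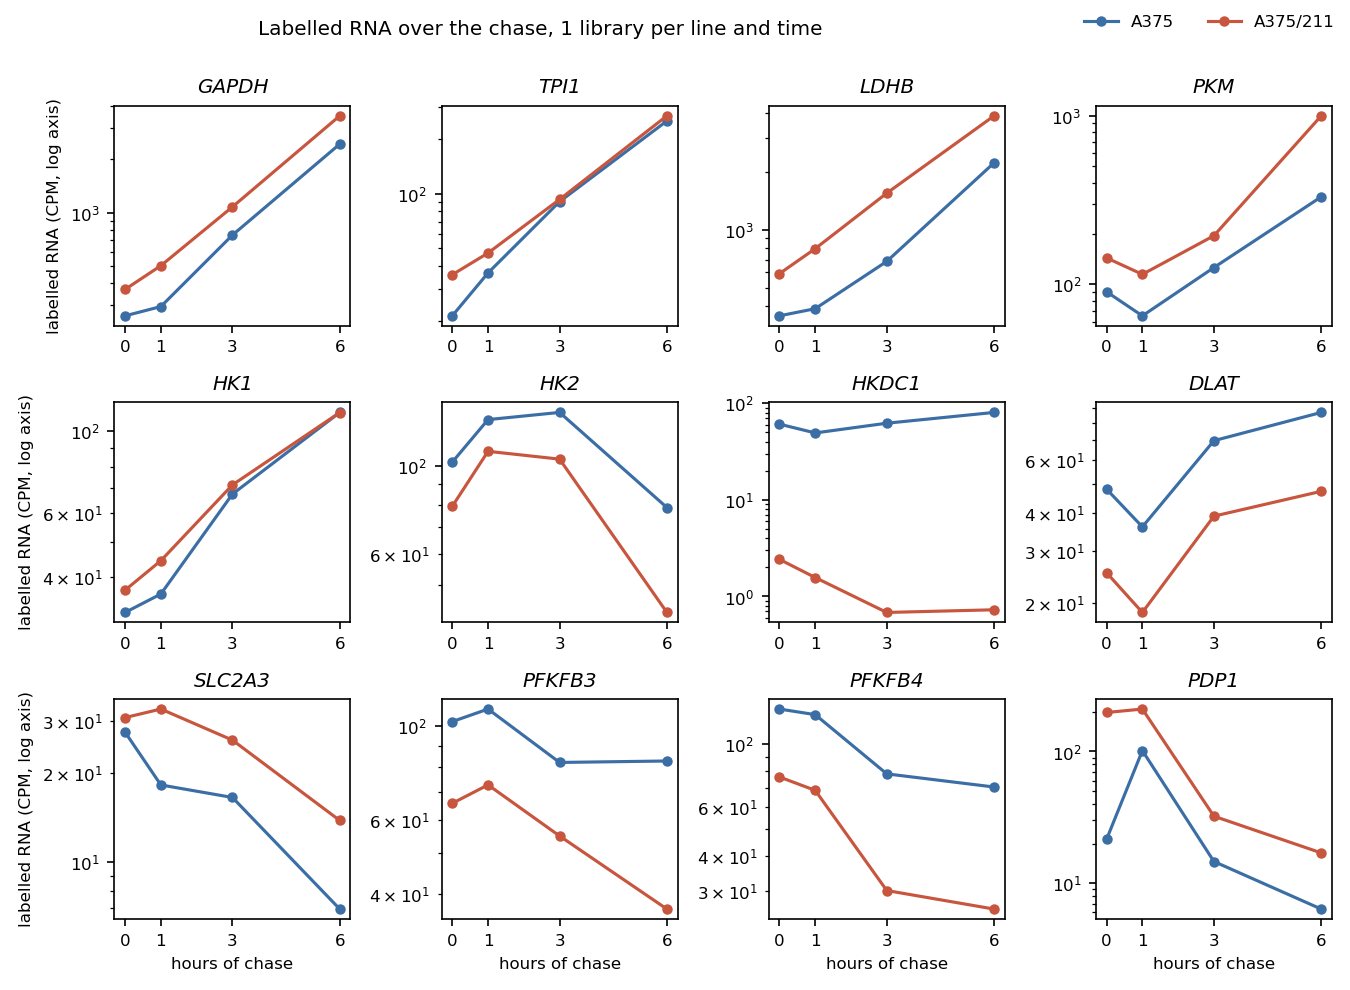
Labelled RNA of 12 members over the chase in CPM (log axis, scaled separately in each panel) against hours, with 1 library per line and time. Under TMM scaling GAPDH, TPI1, LDHB and HK1 climb at each step in both lines, HK2 is lowest at 6 h, and PDP1 has a single high A375 library at 1 h.

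Of the 5 subunits of the pyruvate dehydrogenase complex 4 rose under TMM, with a median slope of 0.31. PDHA1 (0.38) and PDHB (0.32), the subunits of the decarboxylase, rose, as did DLD (0.31), the shared dihydrolipoyl dehydrogenase, and DLAT (0.19), the acetyltransferase core, while PDHX (0.02, SE 0.04) did not pass. With total counts DLAT no longer passed and PDHX fell (-0.14), and with ribosomal protein mRNAs constant PDHB, DLD and DLAT had slopes below 0. The pyruvate carrier subunits MPC1 (0.32, SE 0.05) and MPC2 (0.31, SE 0.04) also rose under TMM and lay below 0 with ribosomal protein mRNAs constant. SLC2A1, the basal glucose carrier GLUT1, did not pass (0.02, SE 0.09). PFKFB2 rose weakly (0.09, SE 0.03, edgeR adjusted p = 0.0427), lost its call in 6 of 8 fits with a library left out, with the slope between 0.08 and 0.11, and lay below 0 with total counts. The 2 members too scarce to test in labelled RNA were followed by their raw counts. PFKL, the liver-type phosphofructokinase, had 0, 7, 11 and 32 counts in A375 and 0, 0, 14 and 17 in A375/211. SLC16A3, the lactate carrier MCT4, had 16, 5, 5 and 7 and 17, 10, 5 and 5.

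Isozymes of the same step did not all sit together. HK1 (0.29), the ubiquitous hexokinase, stood above HKDC1 (0.00, SE 0.08) and HK2 (-0.12). For HKDC1 the A375/211 part of that slope rests on only 9, 8, 4 and 3 counts. PFKP (0.30, SE 0.05) and PFKM (0.29, SE 0.04) lay within their standard errors of each other, and LDHB (0.45, SE 0.02) and LDHA (0.42, SE 0.03) lay close. ALDOC (0.52, SE 0.04) stood above ALDOA (0.39, SE 0.05), and ENO1 (0.43, SE 0.03) above ENO2 (0.34, SE 0.03). These differences between genes were not tested. The scaling bears little on them, since it adds about the same amount to each.

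With a slope for each line in a joint fit of all 8 libraries, 18 of 22 enzymes rose and 0 fell under TMM in either line. The lines share an estimate of the spread in this fit, so their calls are not independent. No difference in slope between the lines passed. In A375, 20 of 31 members rose and 1, SLC2A3, fell, against 23.0% and 24.2% of all genes tested. In A375/211, 20 rose and 4 (PDP1, PFKFB4, SLC2A3 and PFKFB3) fell, against 21.9% and 21.0%. With ribosomal protein mRNAs constant 0 members rose in either line, and 4 and 6 fell. Both sets of calls rest on the last time, since leaving out a line's 6 h library left 0 members and 0 genes called in that line. For the slope difference, A375/211 minus A375, 0 of 31 members passed by edgeR or by DESeq2, against 0.0% of all genes by edgeR, and 2 members had an unadjusted p under 0.05, as 527 of 13703 genes had. They were HKDC1 (-0.41, SE 0.13, unadjusted p = 0.013 by edgeR) and PDHB (-0.14, SE 0.06, unadjusted p = 0.0494 by edgeR), each with an adjusted p of 1. HKDC1 was tested only because it is well counted in A375. Its A375/211 slope rests on 9, 8, 4 and 3 counts, so no result is drawn from its slope difference. The slope difference was -0.01 for GAPDH (SE 0.05), -0.01 for LDHA (SE 0.06) and 0.00 for LDHB (SE 0.05). A difference too small for this design to detect is possible in every member.

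Annotated transcripts of the members that rose had shorter 3' UTRs than those of the members that fell. The median was 721.5 bases over the 22 that rose (range 200 to 5446) and 2289 bases over the 4 that fell (range 2063 to 2590). Across the 31 members tested, 3' UTR length and mean slope had a Pearson correlation of -0.44 and a Spearman correlation of -0.52. Across 10782 genes with both values these were -0.19 and -0.27. Length outside the 3' UTR went with the slope as well: whole transcript length gave -0.55 and -0.61 over the members and -0.14 and -0.23 over all genes, and coding length gave -0.35 and -0.55 and 0.02 and -0.08. The AU content of the 3' UTR gave -0.29 and -0.34 over the members and -0.22 and -0.20 over all genes. The points share the same 8 libraries, and genes are not independent replicates. Long 3' UTRs did not always go with low slopes, as PGK1 (3465 bases, slope 0.47) and GPI (2377 bases, slope 0.47) show.

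**Figure D3:**
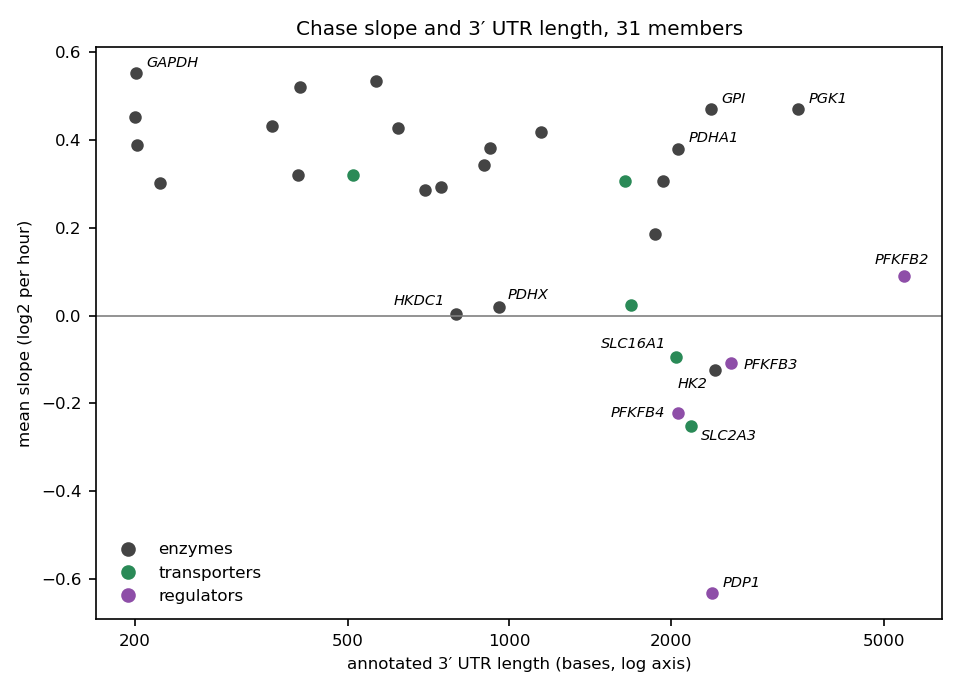
Mean chase slope (log2 per hour, TMM scaling) against the length of the annotated 3' UTR (bases, log axis) for the 31 members tested, by class. The members below 0 under this scaling have 3' UTRs of 2044 to 2590 bases, and GPI (2377), PDHA1 (2065), PGK1 (3465) and PFKFB2 (5446) have slopes above 0 with 3' UTRs as long or longer.

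The AU-rich heptamer TATTTAT, a core of elements that recruit decay factors, lay in 13 of 33 member 3' UTRs (39.4%), beside 31.5% of all annotated ones. It was searched on the sense strand, and overlapping matches count separately. Some of its places, not all, are shown for low and high members side by side, with the heptamer in capitals, because it was found at both ends of the order:
SLC2A3 (slope -0.25), bases 469 to 475: aacttgagtttTATTTATtttatcctctg
SLC2A3, bases 586 to 592: catgatggaaaTATTTATttttttaagcg
PFKFB3 (slope -0.11), bases 2351 to 2357: agcagatgtgcTATTTATttatttaatat
HK2 (slope -0.12), bases 871 to 877: tgtacgtaatgTATTTATatgttaatttg
HK2, bases 1758 to 1764: tggtttttgtaTATTTATcaaacttgtgc
DLAT (slope 0.19), bases 56 to 62: tcttaacaagaTATTTATatgttattaaa
DLAT, bases 1299 to 1305: ctttctattaaTATTTATgtgttttaata
ENO2 (slope 0.34), bases 489 to 495: aggctttagtgTATTTATttatttattta
PGK1 (slope 0.47), bases 252 to 258: tagagtgcataTATTTATattttgcctgt
Of the 4 members that fell 3 hold the heptamer (PDP1 at 3 places, not shown, and PFKFB3 at 2 overlapping ones), and PFKFB4 does not. Of the 22 that rose 6 hold it, and of the 5 that did not pass 3 do. DLAT, with 5 places in 1869 bases, and ENO2, with 4 overlapping ones in 897 bases, hold more than most 3' UTRs of like length (0.972% and 0.548% hold at least as many), and both rose under TMM. The Pumilio motif TGTANATA lay in 8 members (24.2%, beside 25.4% of all annotated 3' UTRs). These were 4 of the 22 that rose, 0 of the 4 that fell and 4 of the 5 that did not pass. HK2 holds it at 2 places, again on the sense strand:
HK2, bases 892 to 899: ttaatttgttaTGTATATAgatgtgcaagt
HK2, bases 2245 to 2252: gctttgctttgTGTAAATAcagtggatctc
These matches describe letters and not bound sites.

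In total RNA, no member differed between the lines by the main test, and HKDC1 lay furthest apart. Of 33 members 0 passed in RNA-seq (edgeR quasi-likelihood test, n = 2 libraries per line), as did 0.379% of 19258 genes tested. An unadjusted p under 0.05 was found for 3 members, as for 2107 genes, and DESeq2 called 2 members, both lower in A375/211. The median difference of the members was -0.19 (A375/211 minus A375, log2), beside 0.00 over all genes. Both A375/211 libraries lay below both A375 libraries for 7 members (HKDC1, PDHX, DLAT, DLD, SLC2A1, SLC2A3 and PFKFB3), against 20.3% of genes tested. They lay above for 3 (PFKM, SLC16A3 and PDP1), against 20.7%.

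HKDC1, a hexokinase-like gene that lies directly upstream of HK1 on chromosome 10 (69220332 to 69267552, with HK1 from 69269984 to 69401884, hg38), stood at 160 and 95.4 CPM in A375 and 25.2 and 13.3 CPM in A375/211. The lines did not overlap, and the log2 difference was -2.73 (SE 0.43, edgeR adjusted p = 0.099; DESeq2 adjusted p = 1.75e-08). HK1 next to it stood at 160 and 267 CPM and at 195 and 212 CPM (log2 -0.07, SE 0.29), and HK2 at 70.7 and 87.3 CPM and at 80.1 and 58.8 CPM. PFKFB3 stood at 72.8 and 74.3 CPM in A375 and 42.1 and 39.5 CPM in A375/211 (log2 -0.85, SE 0.16, edgeR adjusted p = 0.134; DESeq2 adjusted p = 0.00445). DLAT stood at 56.9 and 73.0 CPM and at 42.4 and 39.8 CPM (log2 -0.66, SE 0.20, edgeR adjusted p = 0.321), which DESeq2 did not call either (adjusted p = 0.193). The glucose carriers SLC2A1 (log2 -0.62, SE 0.26) and SLC2A3 (log2 -0.60, SE 0.23) lay lower in both A375/211 libraries without passing.

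**Figure D4:**
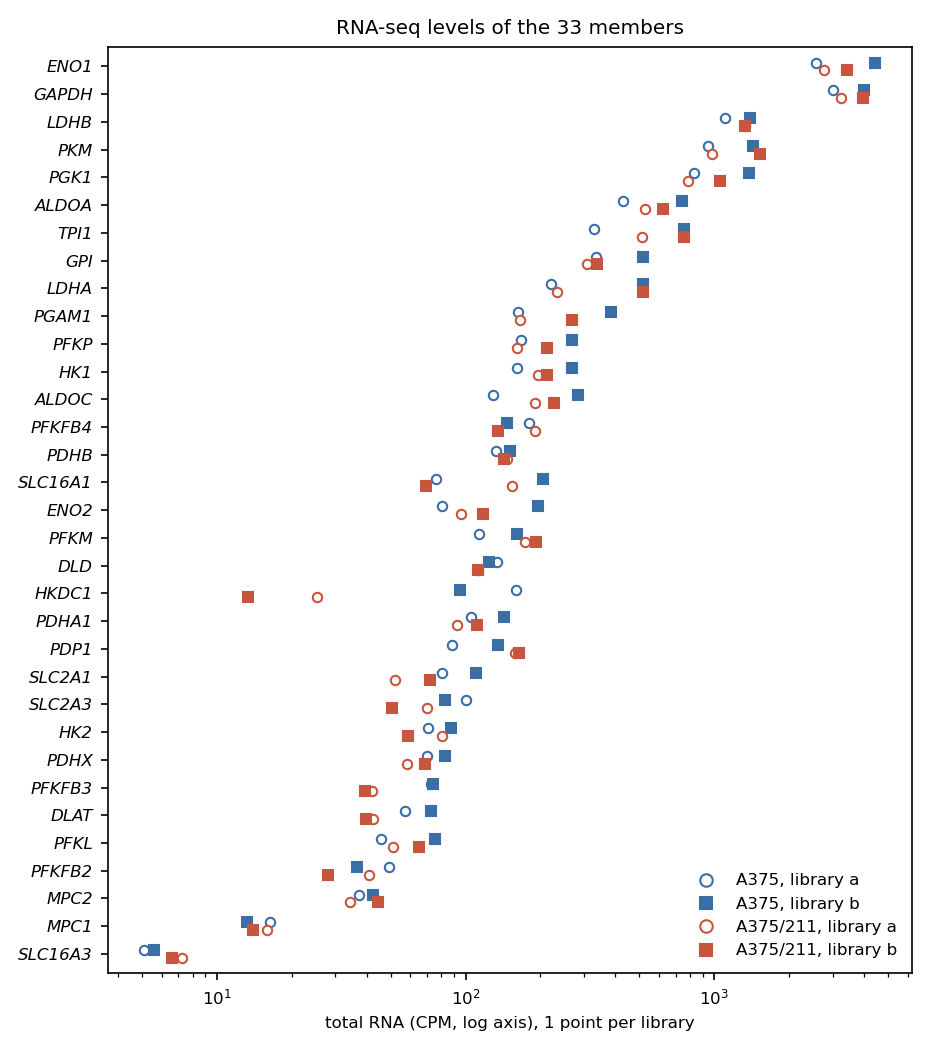
RNA-seq level of the 33 members in CPM (log axis), 1 point per library, with the line by colour and the library letter by shape, ordered by the A375 mean. HKDC1 has both A375/211 libraries (13.3 and 25.2 CPM) well below both A375 libraries (95.4 and 160 CPM), and for most enzymes the b library lies above the a library of its line.

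For most glycolytic enzymes the libraries of a line lay further apart than the lines did, and in the same direction by letter. In 14 of 16 glycolytic enzymes library b exceeded library a in both lines, as in 32.5% of all genes with counts in every library. The median log2 difference of b over a was 0.72 in A375 and 0.30 in A375/211 for these 16 genes, beside -0.03 and 0.00 over all genes. LDHA stood at 220.5 and 517 CPM in libraries a and b of A375 and at 234 and 516 CPM in those of A375/211. TPI1 stood at 328 and 759 CPM and at 514 and 757 CPM, and ENO2, the neuronal enolase, at 80.6 and 195 CPM and at 95.8 and 118 CPM. Genes outside the pathway moved with the letters, among them TXNIP, which responds to glucose (26.1 and 240.5 CPM in A375, 21.9 and 220 CPM in A375/211), and the low-oxygen genes CA9 (24.7 and 73.7, then 16.8 and 23.9 CPM) and BNIP3 (74.4 and 191, then 69.9 and 109 CPM), all 3 chosen after their values were seen. Their lists as a whole did not all do so: b exceeded a in both lines in 8 of 16 hypoxia response genes and in 3 of 15 transcriptional regulators of glycolysis, the list that holds TXNIP. The part of culture conditions in these differences was not tested, and the labels do not say what a and b mark. Within letters, the line difference of LDHA was 0.08 and 0.00 for a and b, that of GAPDH 0.10 and -0.02, that of ENO2 0.25 and -0.73, and that of HKDC1 -2.66 and -2.84. SLC16A1 went opposite ways by letter (1.01 and -1.56), with 75.9 and 205 CPM in A375 and 153 and 69.5 CPM in A375/211.

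Per kilobase of exon, in RNA-seq means of 2 libraries, GAPDH (1461 CPM per kb in A375 and 1497 in A375/211) and ENO1 (671 and 590.5) were the most abundant members and SLC16A3 (0.58 and 0.75) the scarcest. Among isozymes, ALDOA (153 and 150) exceeded ALDOC (78.9 and 79.9), ENO1 exceeded ENO2 (32.2 and 24.98), and LDHB (418 and 445) exceeded LDHA (61.2 and 62.2) in both lines. HK1 (31.1) and HKDC1 (30.2) were near each other in A375, above HK2 (13.4), whereas in A375/211 HKDC1 (4.56) lay under both HK2 (11.7) and HK1 (29.6). PFKP (28.0 and 24.0) exceeded PFKM (18.9 and 25.3) in A375 only, and PFKL (6.80 and 6.52) was lowest of the 3 in both lines. PKM, which forms pyruvate and the second ATP of the pathway, stood at 139 and 146. These levels rest on the union of all annotated exons, which makes a gene with many long minor isoforms look scarcer.

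In labelled RNA several enzymes were higher and HKDC1, HK2, DLAT and the PFKFB3 and PFKFB4 regulators lower in A375/211. With each time matched, 11 of 31 members tested were higher and 5 lower (edgeR quasi-likelihood test, 4 matched times standing in for replicates), against 13.6% and 12.3% of all genes tested. The median over members was 0.14, beside -0.05 over all genes. Of all 33 members 14 were higher in A375/211 at all 4 times and 6 at 0 of them. Among all genes tested 22.9% were higher and 25.6% lower at all 4 times, so such agreement is common. By class, 9 enzymes, 1 transporter and 1 regulator were higher, and 3 enzymes, 0 transporters and 2 regulators were lower. With total counts in place of TMM, 9 members were higher and 7 lower.

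HKDC1 had the widest gap. It stood at 60.9, 49.4, 62.3 and 80.6 CPM in A375 and at 2.42, 1.57, 0.683 and 0.728 CPM in A375/211, where these stand for 9, 8, 4 and 3 counts. Summed over the chase, its scaled counts in A375 were 49.7 times those in A375/211 (95% interval 33.3 to 77.9, exact conditional binomial, counting error only). The fitted log2 difference was -5.56 (SE 0.35). HKDC1 is among the members counted as lower above, but it was tested only because it is well counted in A375. The gap is therefore described by its counts, and no result is drawn from its test. HK2 stood lower at all 4 times (log2 -0.47, SE 0.12, edgeR adjusted p = 0.0351), but its call was lost whichever library was left out, with the difference between -0.54 and -0.33. HK1 did not pass (log2 0.14, SE 0.10).

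PFKFB4 and PFKFB3, whose values over the chase stand above, were lower in A375/211 at all 4 times. The log2 difference was -1.12 for PFKFB4 (SE 0.14, edgeR adjusted p = 0.00315) and -0.74 for PFKFB3 (SE 0.13, edgeR adjusted p = 0.00917). The PFKFB3 call was lost without the A375 library at 3 h (log2 -0.73, edgeR adjusted p = 0.051). In RNA-seq PFKFB4 showed no such gap, at 180 and 147 CPM in A375 and 191 and 136 CPM in A375/211 (log2 0.00, SE 0.24). The gene UCN2 shares exon sequence with PFKFB4 on the same strand. It had 42.0% as many counts as PFKFB4 in labelled RNA and 65.4% as many in RNA-seq. Reads may thus have been divided between these genes in either assay, and the part of this in the gap was not tested. DLAT stood at 48.1, 36.0, 69.8 and 86.8 CPM in A375 and 25.3, 18.7, 39.1 and 47.3 CPM in A375/211, lower at each time (log2 -0.89, SE 0.10, edgeR adjusted p = 0.002). The other subunits of the complex, DLD (-0.28, SE 0.11), PDHA1 (-0.18, SE 0.14), PDHB (-0.15, SE 0.14) and PDHX (-0.02, SE 0.12), did not pass, and DLD did with total counts (-0.39, edgeR adjusted p = 0.0358).

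Enzymes of several steps stood higher in A375/211. ALDOC (log2 1.00, SE 0.12), PFKM (log2 0.98, SE 0.11) and LDHB (log2 0.94, SE 0.09) were higher and passed whichever library was left out. PFKM stood at 23.9, 21.8, 31.3 and 81.6 CPM in A375 and 51.7, 44.6, 64.4 and 137 CPM in A375/211. SENP1, on the opposite strand to PFKM, had 329% as many labelled counts. GAPDH (log2 0.58, SE 0.07) and PGK1 (log2 0.56, SE 0.07) were higher too, with every A375/211 library above the A375 library of the same time. An unnamed gene opposite GAPDH had 30.1% as many labelled counts as GAPDH and 0.0279% in RNA-seq.

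PKM stood at 90.4, 65.1, 126 and 330 CPM in A375 and 143.5, 115, 194 and 997 CPM in A375/211, with the widest gap at 6 h (log2 0.93, SE 0.17, edgeR adjusted p = 0.0118). LDHA, the subunit that favours lactate, stood at 195, 191, 376 and 1031 CPM and at 244, 262, 496 and 1290 CPM (log2 0.37, SE 0.06, edgeR adjusted p = 0.00831). LDHA and GPI (log2 0.41, SE 0.10) lost their calls in 3 and 6 of the 8 fits with a library left out, with differences of 0.35 to 0.43 and 0.36 to 0.51. PFKP stood at 27.1, 15.5, 43.7 and 73.8 CPM and at 34.7, 35.1, 54.3 and 115 CPM (log2 0.61, SE 0.17, edgeR adjusted p = 0.041). It lost its call in each such fit, with differences of 0.44 to 0.79. GPI and PFKP also missed the threshold with total counts, at 0.30 and 0.51.

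SLC2A3 was higher in labelled RNA at all 4 times (log2 0.65, SE 0.17, edgeR adjusted p = 0.0376), whereas its RNA-seq difference lay the other way. It lost its call in 6 of 8 fits with a library left out, at 0.56 to 0.82. Its pseudogenes had 9.58% to 36.2% as many labelled counts as the gene itself. PDP1, with 21.6 CPM in A375 and 198 CPM in A375/211 at 0 h, differed by 1.68 on the log2 scale (SE 0.38, edgeR adjusted p = 0.0224). The call was lost in 5 of 8 fits, and the difference ran from 1.18 to 1.96. The 15 members that did not pass lay between -0.55 (MPC1) and 0.37 (ALDOA).

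**Figure D5:**
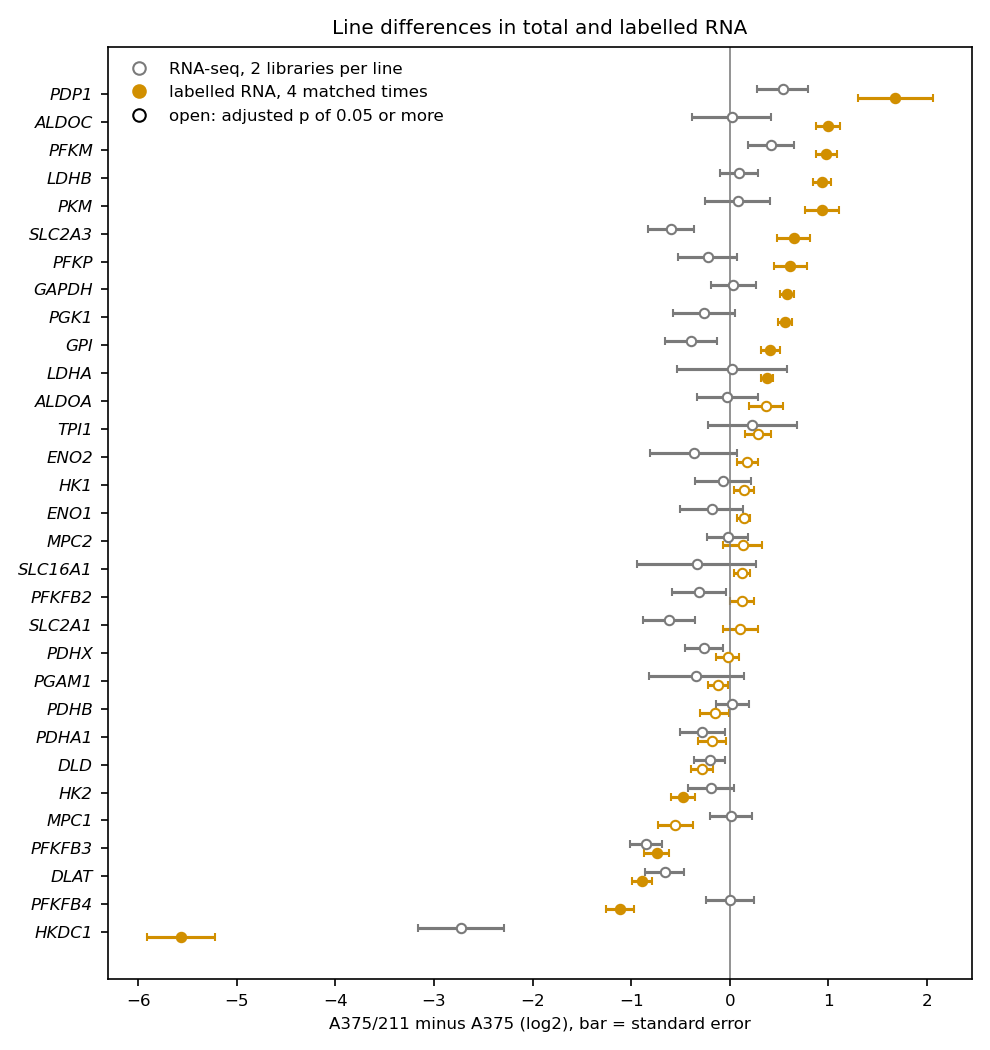
Difference between the lines, A375/211 minus A375 in log2, for 31 members in RNA-seq and in labelled RNA, with the standard error as a bar and filled points for those that passed. HKDC1, PFKFB3 and DLAT lie below 0 in both assays, while PFKFB4 (0.00 and -1.12) and SLC2A3 (-0.60 and 0.65) do not match.

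The differences between lines in the 2 assays come from separate libraries. Their Pearson correlation over the 31 members was 0.87 and the Spearman correlation 0.51, and without HKDC1 the former was 0.53. Over 12677 genes tested in both they were 0.41 and 0.25. Members had the same sign in both assays in 16 of 31 cases, and all genes in 7331 of 12677. HKDC1 (-2.73 in RNA-seq and -5.56 in labelled RNA), PFKFB3 (-0.85 and -0.74) and DLAT (-0.66 and -0.89) lay lower in A375/211 in both. The labelled HKDC1 value rests on 9, 8, 4 and 3 counts in A375/211, and the gene was tested only through A375. For LDHB (0.09, SE 0.19, and 0.94, SE 0.09), PKM (0.08 and 0.93) and ALDOC (0.02 and 1.00) the labelled difference had no counterpart of like size in total RNA. The difference between assays was not tested.

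Neighbouring pathways, taken as whole lists, showed how far the chase pattern was shared. Beside them, 29.9% of all genes tested rose and 34.4% fell under TMM. All 18 citric acid cycle genes rose (median slope 0.34), led by MDH2 (0.45), SUCLG2 (0.39) and MDH1 (0.38); with ribosomal protein mRNAs constant 0 rose and 2 fell. Of 9 pentose phosphate pathway genes 7 rose and 0 fell (PGD 0.38, TALDO1 0.37, TKT 0.26), of 9 tested glycogen metabolism genes 8 rose and 0 fell (GBE1 0.37, PYGL 0.35, PYGB 0.30), and of 6 tested genes of gluconeogenesis and pyruvate carboxylation 5 rose and 0 fell (ME1 0.40, ME2 0.31, G6PC3 0.43). With ribosomal protein mRNAs constant 0 genes of these lists rose. Other isozymes and transporters of the pathway split into 6 rising and 2 falling of 10 tested, with slopes from -0.44 to 0.49. BSG, the chaperone of lactate carriers (0.49), and TIGAR, a fructose 2,6-bisphosphatase (-0.41), stood near opposite ends. PGAM4 (0.40) is a near-copy of PGAM1. The transcriptional regulators of glycolysis went the other way, 2 rising and 5 falling of 9 tested, with MYC at -0.84 and BACH1 at -0.23. Hypoxia response genes outside glycolysis had 6 rising and 4 falling of 13 (P4HA2 0.36, P4HA1 0.36, BNIP3 0.29).

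Between the lines, 13.6% of all genes tested were higher and 12.3% lower in labelled RNA of A375/211, and 0.379% passed in RNA-seq. Of 9 transcriptional regulators of glycolysis tested in labelled RNA 1 was higher, 1 lower and 7 did not pass, with a median of -0.15. The higher one was HIF1A, the oxygen-sensitive activator of many glycolytic genes (log2 0.92, SE 0.14, edgeR adjusted p = 0.00557). In the citric acid cycle SUCLG2 was higher (1.13) and IDH2 lower, and 16 of 18 did not pass. IDH2 was tested only through A375 and had few labelled counts, 5, 10, 33 and 70 in A375 and 3, 0, 9 and 15 in A375/211. No fold is therefore given for it, and no result is drawn from its call. Of 10 other isozymes and transporters of the pathway tested, 3 were higher, 1 lower and 6 did not pass. ENO3, the muscle enolase, was higher (log2 2.23, SE 0.16), with SLC16A4 (1.24) and SLC16A7 (1.33). In glycogen metabolism 5 of 9 were higher and 1 lower, with GBE1 (0.53) and PGM1 (0.89) among the former, and 2 were higher and 2 lower with total counts. ME2 (1.35) and ME1 (0.70) were higher and ME3 lower. ME3 was tested only through A375, with 20, 8, 21 and 25 counts there and 0, 4, 2 and 2 in A375/211, so no fold is given. In the pentose phosphate pathway RPIA (-1.23) and PGD (-0.36) were lower and TALDO1 (0.53) higher, the last not with total counts or ribosomal protein mRNAs constant. Of 13 hypoxia response genes tested 4 were higher (EGLN1 0.74, P4HA1 0.73) and 1, KDM3A (-0.64), lower. In RNA-seq 0 genes of the citric acid cycle, pentose phosphate, gluconeogenesis and glycogen lists passed by edgeR, with 1, 0, 1 and 1 at an unadjusted p under 0.05, and the hypoxia list had 1 lower (CA12, -2.77). Among the kinases that inactivate pyruvate dehydrogenase, PDK4 passed as lower in A375/211 in RNA-seq (log2 -2.12, SE 0.17, edgeR adjusted p = 0.0441) and in labelled RNA (-0.83, SE 0.20, edgeR adjusted p = 0.0297). PDK4 fell over the chase (-0.59), PDK3 rose (0.32), and PDK1 (0.13, SE 0.06) and PDK2 did not pass.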

How the data were processed

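The authors deposited read counts per gene, as whole numbers with no normalization, in 2 tables of 4 RNA-seq and 8 BRIC-seq libraries. The library kit marks strand, per the labels' protocols. The submitters' processing notes name HISAT2 2.1.0 and StringTie. They give hg19 and the series' design text hg38, so coordinates and 3' UTRs are those of GENCODE 44 (hg38), 1-based, of the Ensembl canonical transcript. Of 60675 gene IDs 56558 (93.2%) matched it. The BRIC-seq row that names no gene (0.000108% to 0.00122% of counts) stayed out of library sizes and tests.

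The counts were tested with edgeR 4.0.16 (R 4.3.3; TMM, quasi-likelihood F test, Benjamini-Hochberg adjustment over all genes, threshold 0.05) after filterByExpr by line (minimum count 10, total 15), with DESeq2 1.42.0 as an alternative. The RNA-seq difference had 2 residual degrees of freedom, the mean slope (line as covariate) 5, the slopes per line and their difference 4, and the line difference with times matched 3. Standard errors (SE) were derived from each log2 value and its F statistic (absolute value over root F). CPM use TMM-scaled sizes. The scripts were tested on simulated counts. Depth limits precision most at 0 h, where 3 counts equal 0.875 and 0.808 CPM.

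The members and the lists of neighbouring genes were chosen with earlier results of these data known. By rule, values in each library are given for members that passed between lines, for the 6 highest and 6 lowest slopes and for isozymes, and other lists by their counts and up to 3 genes of smallest p; 2 of these are not reported here. Alternatives were RLE and total-count scaling, ribosomal protein mRNAs (82 genes) or the row without a gene held constant, no filter, a mean CPM of at least 5, ranks of time, pseudogene counts added, the library letter as a block, and each library left out.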

Additional observations from a re-analysis of the deposited data

How the results depend on the processing

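Slopes depend on what is held constant, and line differences in labelled RNA depend on single libraries. With ribosomal protein mRNAs constant the mean slope called 2 members rising and 10 falling, and 0 rising with 4 and 6 falling in A375 and A375/211. Mean slopes that turned negative were then HK1 -0.056, HKDC1 -0.37, PFKM -0.059, PFKP -0.038, ENO2 -0.0097, PDHB -0.024, PDHX -0.34, DLAT -0.15, DLD -0.043, SLC2A1 -0.35, MPC1 -0.037, MPC2 -0.045 and PFKFB2 -0.26. The slopes that turned in A375 were HK1 -0.031, PFKM -0.0304, PFKP -0.0299, ENO2 -0.018, DLD -0.049, MPC1 -0.053 and MPC2 -0.043, and in A375/211 HK1 -0.081, PFKM -0.088, PFKP -0.046, ENO2 -0.0009, PDHB -0.095, DLD -0.036, MPC1 -0.021 and MPC2 -0.047. This scaling moved the median slope of all genes by -0.35 and total counts by -0.16, so the share of rising calls went from 46.5% to 0.484% and 20.6%. With total counts 7 members fell in the mean slope (PDHX -0.14 and PFKFB2 -0.074 turned) and 4 in A375. With the row without a gene constant 0 rose and 31 fell, a row with only 3 counts in either 0 h library. In A375 2 members fell by DESeq2 or with a mean CPM of at least 5 and 0 with no filter, and in A375/211 2 fell with RLE or with no filter. Adding pseudogene counts left 22 rising and 4 falling, and ranks of time 21 and 3.

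With a library left out, the mean slope called 21 to 23 members rising and 3 to 4 falling, the A375 slope 0 to 20 and 0 to 2 (0 to 6761 genes), the A375/211 slope 0 to 20 and 0 to 4 (0 to 5870 genes), and the line difference 6 to 9 higher and 3 to 5 lower (1739 to 2861 genes). In RNA-seq 0 members passed and 0 to 15 genes. DESeq2 called 2 members lower and 748 genes in RNA-seq, and no filter 237 genes. For the slope difference DESeq2 called 14 genes and no filter 1. The cause of these changes was not tested.

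The letters a and b pair the RNA-seq libraries by a letter only, and the deviations of same-letter libraries correlated at 0.238. With the replicate block 1 member, HKDC1 (adjusted p = 0.0242), and 192 genes passed by edgeR, against 0 and 73. In BRIC-seq the line difference was fitted with times matched throughout.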
